A study of Apis mellifera with 3 samples.

Results

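The genes described here are 148 of 21441 transcript sequences. Each has a best protein match whose description names dopamine, octopamine, tyramine, serotonin, acetylcholine, muscarinic, GABA, a glutamate receptor, a neuropeptide, allatostatin, tachykinin, or a sodium, potassium or calcium channel. The GABA receptor-associated protein, an autophagy protein, was left out. The choice used words and no expression value. The words also took in 19 sequences whose description names neither a receptor nor a channel, namely transporters, degrading and synthesizing enzymes, peptide precursors and some subunits. The set is therefore not one of receptors and channels alone. It is called transmitter genes below for short. It also holds 12 sodium, 15 potassium and 27 calcium channel sequences, some of them for channels not particular to nerve cells. The 148 sequences match 120 distinct proteins. Several are fragments of 1 gene and are not independent members. The best match was a protein of Apis mellifera for 104 of them and of another insect for 44, and a name therefore gives a likeness.

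Neurons signal by releasing small transmitters and peptides onto receptors. Ligand-gated channels, such as nicotinic acetylcholine receptors and GABA-gated chloride channels, pass ions within milliseconds. Receptors coupled to G proteins, such as those for octopamine, dopamine, serotonin and neuropeptides, act more slowly through cyclic AMP, calcium or both. Voltage-gated sodium, potassium and calcium channels shape the electrical signal and let calcium in at the nerve ending. In honeybees, octopamine and dopamine are known for roles in foraging, reward and aversive learning, acetylcholine is the main fast excitatory transmitter of the brain, and GABA is the main inhibitory one.

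RNA was taken from full-sister worker bees of Apis mellifera carnica Pollmann, produced by artificially inseminated queens. The 3 groups are a winter bee pool labelled day 3 after emergence, a spring bee pool labelled day 6 and a retired bee pool labelled day 9. Each was 1 library from 30 pooled bees, so n = 1, no group has replicates to test, and season, task and labelled age differ together and cannot be told apart. The labels give hypopharyngeal gland, the jelly-secreting gland of the head, as the tissue, while the design text speaks of pooled heads.

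The libraries held 3.18 to 3.85 M uniquely mapped reads. The deposited level is RPKM, the reads of a sequence scaled to its length and to the library total. Folds are ratios of reads per library total with exact 95% binomial intervals, which cover counting error only and compare libraries, not conditions. A difference is counted as at least 2-fold when the ratio of (RPKM + 1) is 2 or more and 1 of the 2 libraries has at least 10 RPKM. Royal jelly proteins, the main product of the gland, took 7.03% of reads in winter bees, 21.2% in spring bees and 18.1% in retired bees. A larger jelly share lowers the share left for every other gene. Neuron markers outside the set (29 sequences for synaptotagmin, synapsin, bruchpilot, complexin, ELAV-like proteins and neurexin) summed to 2231 RPKM in winter, 1780 in spring and 1848 in retired bees. Sequences matched by these words were thus read in all 3 libraries, and whether they came from nerve cells alone was not tested. Fewer nerve cells in a pool and less of an RNA per nerve cell cannot be told apart.

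Transmitter genes took a smaller share of the reads in the spring and retired libraries than in the winter library. They held 18321 winter reads, 12080 spring reads and 11399 retired reads. As a share of each library this was 0.476% in winter (Wilson 95% interval 0.469 to 0.483%), 0.367% in spring (0.361 to 0.374%) and 0.359% in retired bees (0.352 to 0.365%). The share was 1.30-fold lower in spring than in winter (1.27 to 1.33) and 1.33-fold lower in retired than in winter bees (1.30 to 1.36). Between the retired and spring libraries the ratio was 0.977 (0.952 to 1.00), an interval that included 1. With royal jelly reads left out of the library totals, the share was 1.10-fold lower in spring than in winter (1.07 to 1.12), 1.17-fold lower in retired than in winter bees (1.14 to 1.20) and 1.06-fold lower in retired than in spring bees (1.04 to 1.09). The 3 comparisons share libraries in pairs.

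Most members were read, at low levels. In all 3 libraries 134 of 148 had reads, and 62 had fewer than 50 reads over the 3 libraries together. The median level was 7.71 RPKM in winter, 6.28 in spring and 5.63 in retired bees, against 13.98, 12.3 and 11.7 over all sequences with a protein match. Member sequences had a median length of 1282.5 bases, against 969 for described sequences. Reads covered a median fraction of 0.525, 0.441 and 0.413 of their length in the same order of libraries. The 10 members with the most reads held 45.0% of all member reads. At least 10 RPKM in 1 library was reached by 69 members. Of these, 59 (85.5%) were highest in the winter library, 4 in the spring one and 6 in that of retired bees. Over all 12208 sequences past the same minimum, 65.0% were highest in winter. Since a member can pass through the library where it is high, the count over every member stands beside it. Of all 148, 99 (66.9%) were highest in winter, 26 in spring and 23 in retired bees, beside 57.4% highest in winter over all 21441 sequences.

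**Figure D1:**
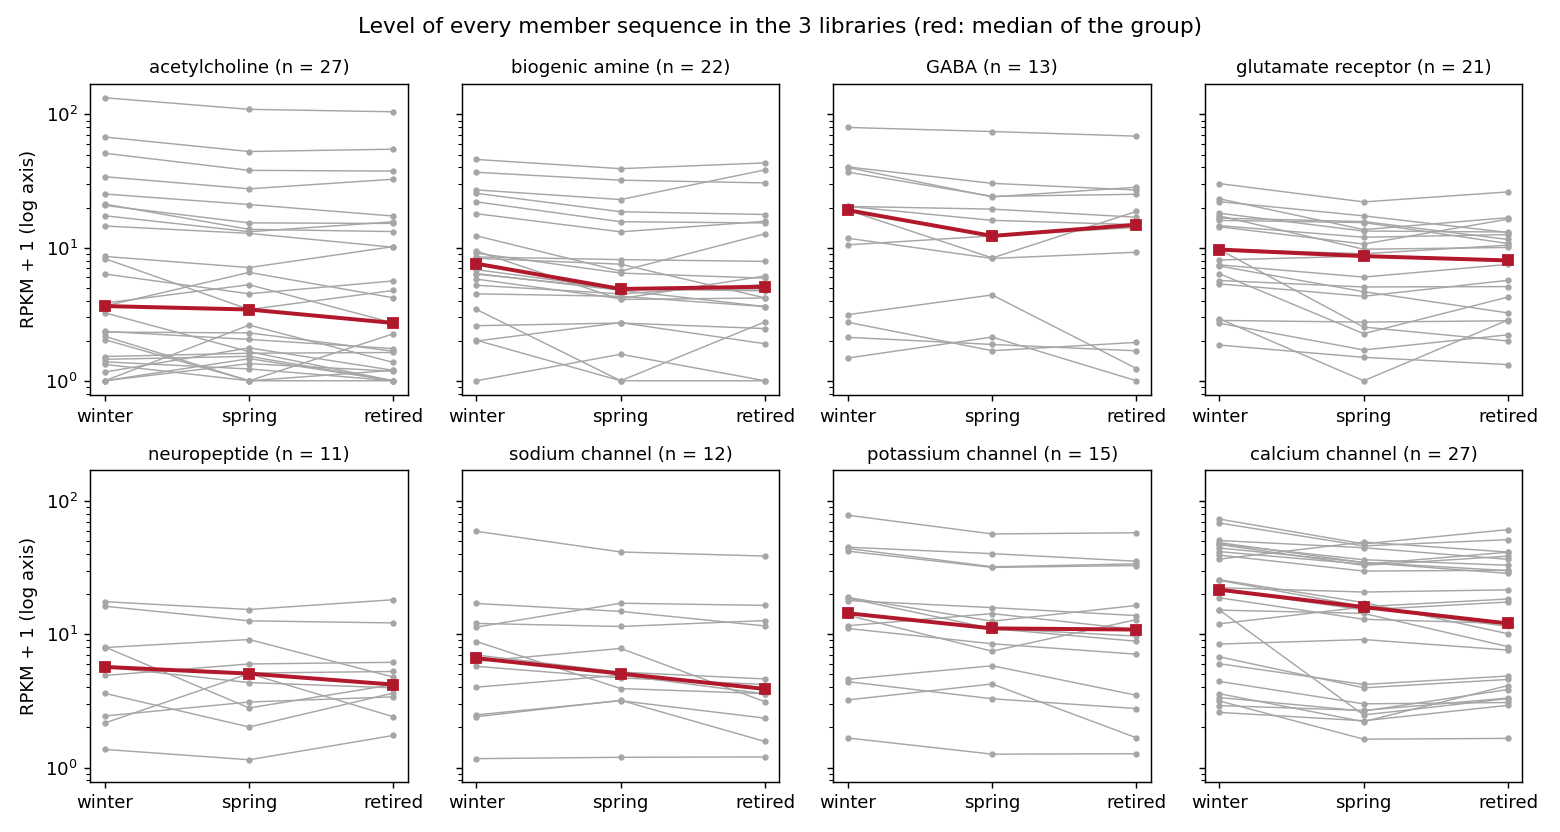
Level of each of the 148 sequences in the winter, spring and retired libraries as RPKM + 1 on a log axis, in 8 groups by transmitter or channel (grey lines), with the group median in red. Most lines run nearly level or slope down from winter, and the highest line is the muscarinic receptor at 132 RPKM in winter.

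Per library total, most members were lower in spring than in winter, by small ratios. In spring over winter, 64 of the 69 members past the minimum had a log2 ratio below 0 and 5 above, and 73.3% of all sequences past the minimum lay below 0. No member was at least 2-fold higher, beside 2.14% of all sequences. A 2-fold or wider difference downward was found in 2 members, beside 4.76%. The median log2 ratio of (RPKM + 1) was -0.40 for the members and -0.26 for all 12038 sequences past the minimum. Exact intervals lay below 1 for 34 of 69 members (49.3%), beside 34% of all sequences, and above 1 for 0 members, beside 7.4%. Without a minimum, intervals lay below 1 for 26.4% of all 148 members and for 20.8% of all sequences. These shares depend on the scaling. Intervals calculated without royal jelly reads in the totals lay below 1 for 10 of the 69 members (14.5%), beside 14.7% of all sequences. They lay above 1 for 5 members, beside 15.4% of all sequences. Rescaling to a median ratio of 1 gave 9 below (13.0%), beside 13.5%, and 5 above, beside 16.5%. It moved the medians to -0.15 and -0.01. Numbers of reads differ between members and other sequences and were not matched, so the shares of intervals are a description.

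The 9 members below 1 under all 3 scalings were the sequences for the GABA transporter ine (TC14927), a GABA type B receptor subunit 2 (NP9553754), the GABA-gated channel TC13760, nicotinic alpha7, TyrR, the release-activated channel NP9545413, a slowpoke-like channel (TC16611), the small conductance channel NP9548654 and Para. Acetylcholinesterase (TC15261) was below 1 under the first 2. The 5 above 1 under the other 2 scalings were Gat-a, the flower-like TC15346, a T-type channel (NP9545884), a TWiK 7-like channel (TC13386) and the 60E-like TC18199. For the other members past the minimum, the spring over winter folds below are per library total, and their intervals include 1 under both other scalings. Members below the minimum that stayed below 1 under all 3 scalings were, among those described, TC22460, NP9546521 and NP9546460.

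In retired over winter bees 61 of 69 members had a log2 ratio below 0, beside 76.6% of all sequences. None of them, 0 of 69, was at least 2-fold higher, beside 1.31% of all sequences, and 3 were at least 2-fold lower, beside 5.43%. The median was -0.39, against -0.26 for all sequences. Intervals lay below 1 for 36 members (52.2%), beside 33.8% of all sequences, and above 1 for 1, beside 5.65%. They lay below 1 for 22 members (31.9%), beside 18.3%, with royal jelly reads left out, and for 10 (14.5%), beside 11.6%, after rescaling. Those 10, below 1 under all 3 scalings, were Para, the 60E-like NP9546566, Cac, the alpha-2/delta-3-like NP9548366, nicotinic alpha7, TyrR, the GABA type B sequences TC14736 and NP9553754, NP9545413 and NP9548654. Retired over winter folds below 1 of other members past the minimum had intervals that included 1 after rescaling. Intervals lay above 1 for 2 members, beside 11.2% of all sequences, with royal jelly reads left out. After rescaling they lay above 1 for 3, beside 16.8%. Per library total and without a minimum, intervals lay below 1 for 29.7% of members and 20.9% of all sequences. In retired over spring bees 65 members passed the minimum, 30 with a log2 ratio above 0 and 35 below, and the median was -0.02 for members and for all sequences alike. There 1 member was at least 2-fold higher, beside 1.81%, and 0 were at least 2-fold lower, beside 1.96%. Intervals lay above 1 for 3 members, beside 8.71%, and below 1 for 5, beside 11%.

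**Figure D2:**
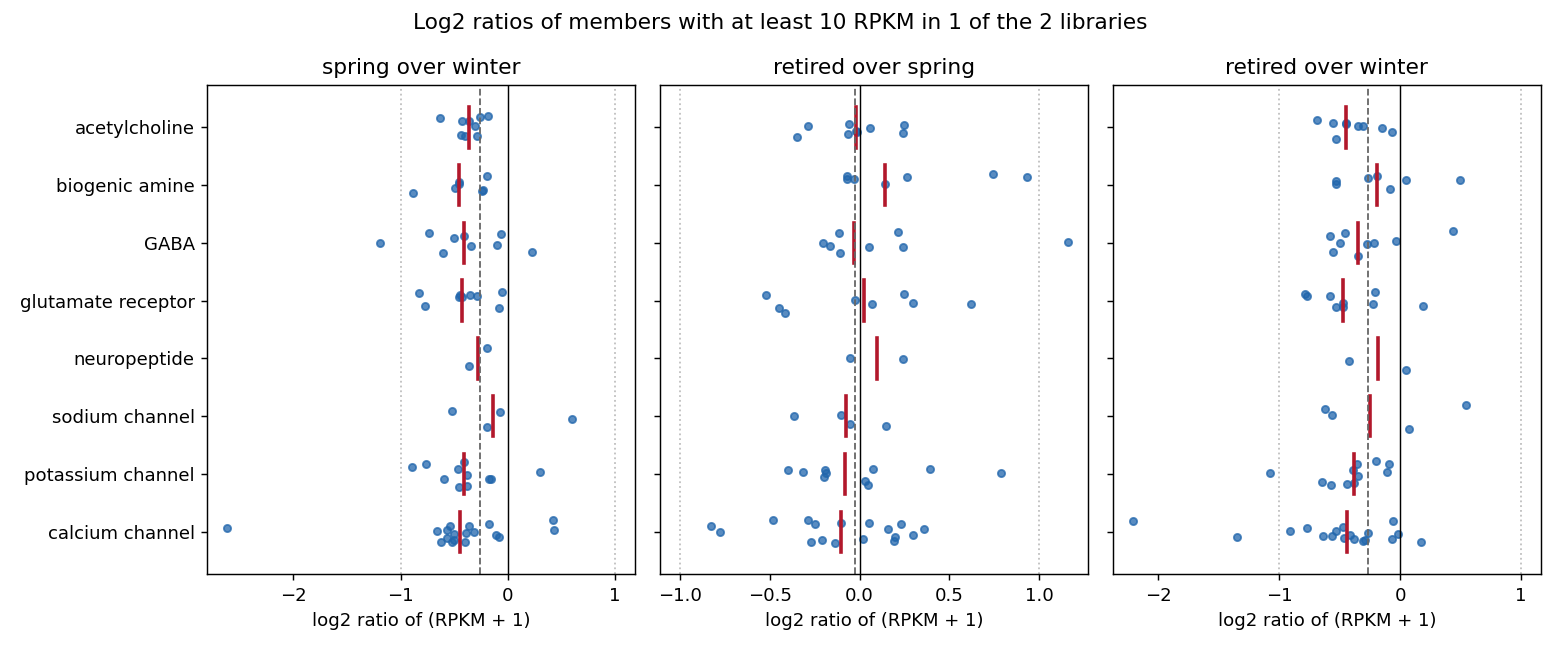
Log2 ratio of (RPKM + 1) for each member that reached 10 RPKM in either library of the pair (points), with the group median (red bar), the median of all sequences (dashed line) and 2-fold differences (dotted lines). The x axis differs between panels. In spring over winter 64 of 69 points lie left of 0, and in retired over spring they lie on both sides.

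All 8 groups had a lower summed share of reads in spring than in winter. The ratios lay between 1.20-fold lower for neuropeptide genes (0.986 to 1.46, an interval that included 1) and 1.33-fold lower for sodium channels (1.24 to 1.42), and every interval but that of the neuropeptide genes lay below a ratio of 1. The intervals of all 8 groups overlapped. The sums weigh the most read sequences, and the sodium channel Para held 1418 of the 2007 winter reads of its group. The median log2 ratio of the 4 sodium channel sequences past the minimum was -0.14, the smallest fall of the 8 groups. In retired over winter bees 2 of those 4 had a log2 ratio above 0. The ratios of the 8 groups without royal jelly reads lay between 0.889 for sodium channels and 0.983 for neuropeptide genes, and again only the latter interval included 1. After rescaling, the interval of potassium channels, 0.945 (0.887 to 1.01), included 1 as well. In retired over winter bees sodium channels had the lowest ratio, 1.51-fold lower (1.40 to 1.63), and biogenic amine genes were 1.26-fold lower (1.17 to 1.35). Without royal jelly reads only the neuropeptide interval included 1 in that comparison. After rescaling, the interval of biogenic amine genes, 0.975 (0.907 to 1.05), included 1, as did those of GABA, glutamate receptor and neuropeptide genes. In retired over spring bees sodium channels were 1.14-fold lower (1.05 to 1.24). The intervals of the transmitter groups and of potassium channels included 1 there, and that of calcium channels ended at 1.00. Without royal jelly reads the intervals of potassium and calcium channels lay below 1, and after rescaling they included 1.

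**Figure D3:**
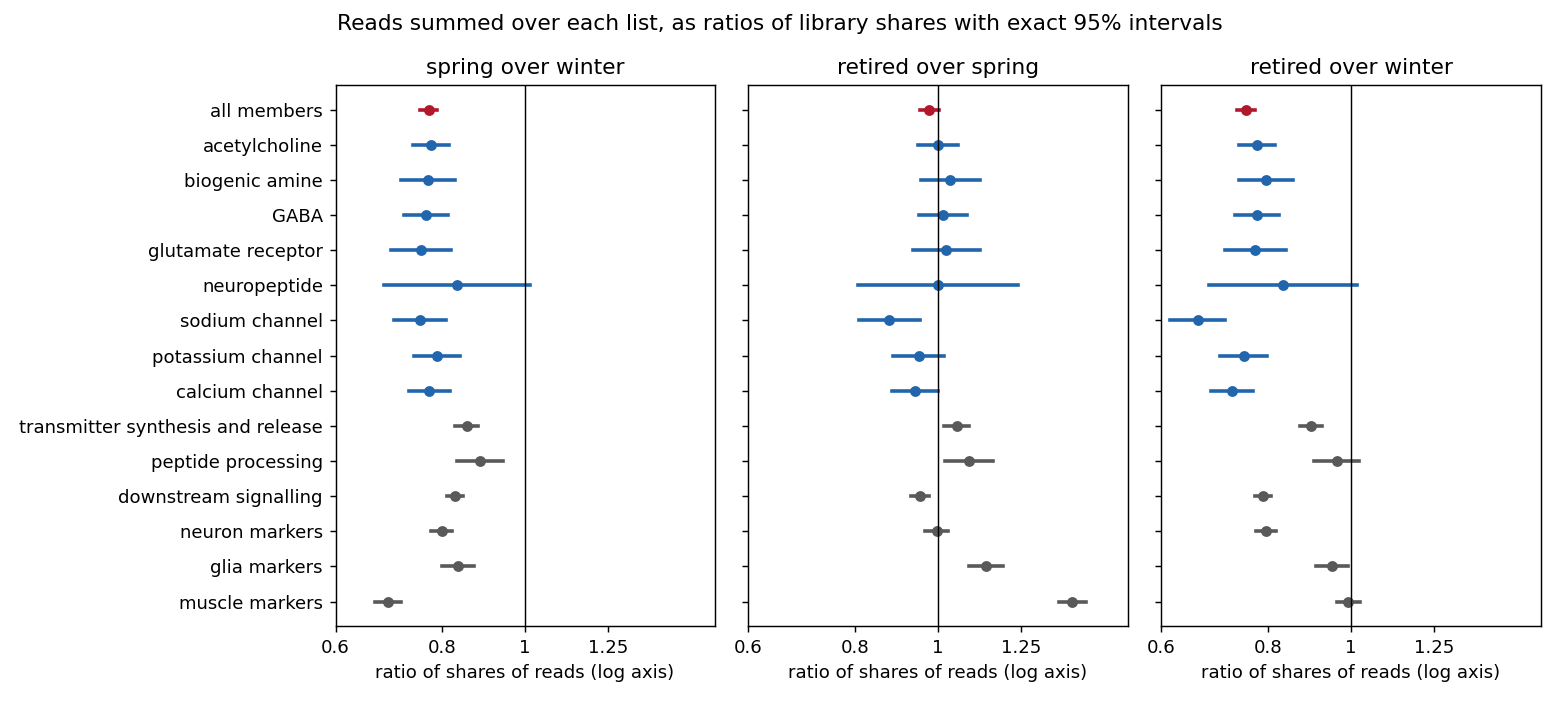
Ratio of the share of reads summed over each list, on a log axis, for the 3 pairs of libraries, with exact 95% intervals (lines) that cover counting error. Red is the whole set, blue the 8 groups, and grey other lists of signalling genes and cell type markers (the muscle list here holds 4 non-muscle or 95F myosins). The whole set sits at 0.772 for spring against winter, 0.977 for retired against spring, and 0.754 for retired against winter.

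Acetylcholine genes were the most read group, with 27 sequences and a share of 0.107% in winter, 0.0832% in spring and 0.0832% in retired bees. The muscarinic receptor matched by TC13649 (LOC412299), a G protein-coupled acetylcholine receptor, had the highest level of all 148 members. It stood at 132 RPKM in winter, 108 in spring and 104 in retired bees. Its reads were 1.22-fold lower in spring than in winter (1.12 to 1.34) and 1.28-fold lower in retired than in winter bees (1.17 to 1.40), and the retired over spring interval included 1. Its spring over winter interval included 1 without royal jelly reads, at a ratio of 0.964 (0.883 to 1.05).

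The vesicular acetylcholine transporter (TC14911), which loads the transmitter into synaptic vesicles, stood at 66.7 RPKM in winter, 51.7 in spring and 53.8 in retired bees. Acetylcholinesterase (TC15261), the enzyme that breaks acetylcholine down, stood at 50.1, 37.0 and 36.5 RPKM and was 1.35-fold lower in spring than in winter (1.18 to 1.55). The 2 libraries other than winter differed little for either sequence. The gene AChE-2, a second acetylcholinesterase, was matched by TC22460 and TC12370, sequences over 13 kb long. Reads covered a fraction of at most 0.0504 of TC22460. TC22460 stood at 5.33, 3.50 and 4.62 RPKM, 1.52-fold lower in spring than in winter (1.24 to 1.87) and 1.32-fold higher in retired than in spring bees (1.06 to 1.64). TC12370 stood at 1.35, 1.04 and 0.744 RPKM on 68, 45 and 31 reads. Summed over both sequences, AChE-2 was 1.47-fold lower in spring than in winter (1.23 to 1.76). The summed retired over spring ratio was 1.18, with an interval that included 1 (0.972 to 1.44). An acetylcholinesterase-like protein matched by 2 other sequences went the other way, highest in spring on 2, 10 and 2 reads.

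Nicotinic receptors are pentamers of alpha and beta subunits that open a cation channel, and they are the targets of neonicotinoid insecticides. Their 18 sequences held 1293 winter, 856 spring and 819 retired reads, 1.29-fold lower in spring than in winter (1.18 to 1.41) and 1.30-fold lower in retired than in winter bees (1.19 to 1.42). The subunit alpha2 (nAChRa2, TC12345) had the highest level at 33.1, 26.6 and 31.6 RPKM in winter, spring and retired bees. Beta1 (nAChRb1) followed at 24.3, 20.1 and 16.3 RPKM. Alpha7 (nAChRa7, TC12304) stood at 20.2, 12.7 and 12.2 RPKM and alpha8 (nAChRa8) at 19.7, 14.3 and 14.2 RPKM. All 4 were highest in winter. Alpha7 showed the widest gap among them, 1.59-fold lower in spring than in winter (1.29 to 1.97).

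Alpha3 (nAChRa3) stood at 16.3, 12.2 and 14.6 RPKM and alpha1 (nAChRa1) at 13.5, 11.8 and 9.06 RPKM. Neither had an interval clear of 1 in spring over winter. Alpha9 (nAChRa9, TC12410) was highest in spring at a low level, with 14 winter, 25 spring and 14 retired reads, and was 2.09-fold higher in spring than in winter (1.05 to 4.35). It was picked out after its values were seen. Subunits alpha4 and alpha6 (sequences TC12358, TC12405 and TC12406) had at most 12 reads in any library.

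Biogenic amine genes counted 22 sequences and 0.0491% of the winter, 0.0378% of the spring and 0.0390% of the retired reads. The serotonin receptor 5-HT1 (NP9548016) had the highest level of them at 44.9, 38.2 and 42.2 RPKM in winter, spring and retired bees, and each of its 3 intervals included 1. The other serotonin receptors were low. 5-HT2alpha stood at 4.21, 3.50 and 4.28 RPKM, and 5-ht7 at 1.59, 1.71 and 1.47 RPKM. Over 6 serotonin receptor sequences the spring over winter ratio was 0.885 (0.731 to 1.07).

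Dopamine acts in the bee on D1-like and D2-like receptors. Dop1 (TC12315), a D1-like receptor that raises cyclic AMP, stood at 35.8, 31.1 and 29.6 RPKM in winter, spring and retired bees. DopR2 stood at 17.0, 12.1 and 14.8 RPKM and was 1.40-fold lower in spring than in winter (1.15 to 1.71). The D2-like receptor Dop3 stood at 5.32, 3.88 and 3.74 RPKM, and the dopamine transporter Dat, which takes dopamine back into the cell, at 3.50, 3.31 and 2.61 RPKM. All of these were highest in winter, but with intervals that included 1 in spring over winter for Dop1, Dop3 and Dat.

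Tyramine and octopamine are made in series from tyrosine, and tyramine beta hydroxylase (Tbh) makes octopamine from tyramine. Tbh stood at 4.80, 3.14 and 5.13 RPKM in winter, spring and retired bees on 34, 19 and 30 reads, with all intervals including 1. The octopamine receptor Oa1 (TC12314) stood at 24.6, 17.6 and 16.7 RPKM and was 1.40-fold lower in spring than in winter (1.15 to 1.70). The tyramine receptor TyrR (TC12428) stood at 21.1, 14.6 and 14.3 RPKM and was 1.44-fold lower (1.20 to 1.72). Both had their winter value above the other 2 libraries, which lay close together.

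The beta-type octopamine receptors raise cyclic AMP. A short sequence resembling beta-2R (BI513748, 388 bases) was highest in retired bees, at 26.1, 21.9 and 37.3 RPKM on 39, 28 and 46 reads, and was 1.70-fold higher in retired than in spring bees (1.04 to 2.82). The longer beta-2R sequence NP9550194 did not show this, with 7.51, 7.12 and 6.88 RPKM. Beta-1R (NP9553158) stood at 8.08, 5.44 and 4.89 RPKM. A beta-3R-like sequence (NP9550199) stood at 7.32, 6.51 and 3.19 RPKM, 2.29-fold lower in retired than in winter bees (1.04 to 5.58), with an interval that included 1 under both other scalings. A second sequence (NP9544821) matched the same protein, and the 2 together held 39, 25 and 21 reads. Summed, they were 1.53-fold lower in retired than in winter bees, with an interval that included 1 (0.880 to 2.74).

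GABA genes counted 13 sequences. Of these, 4 were described as GABA transporters, 5 were type B receptors coupled to G proteins, and 4 were GABA-gated channels. The transporter Gat-1B (TC12325) had the highest level at 78.9, 73.4 and 67.7 RPKM in winter, spring and retired bees, a narrow range. The transporter ine (TC14927) stood at 38.9, 23.0 and 27.4 RPKM and was 1.69-fold lower in spring than in winter (1.44 to 1.99). It is named a GABA transporter by its description alone, and whether it carries GABA was not tested. Gat-a (TC12507) was lowest in winter, at 9.49, 11.2 and 13.2 RPKM, and 1.39-fold higher in retired than in winter bees (1.03 to 1.87). Gat-a was the 1 member past the minimum whose interval lay above 1 in retired over winter. It was picked out after its values were seen.

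Type B receptor subunit 1 (TC14736) stood at 39.3, 29.4 and 26.1 RPKM, and subunit 2 (NP9553754) at 35.9, 23.3 and 24.1 RPKM. Both were lower in spring than in winter, by 1.34-fold (1.14 to 1.58) and 1.54-fold (1.35 to 1.77). Another subunit 2 sequence (TC16385) differed less, at 19.4, 18.5 and 15.9 RPKM.

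The GABA-gated ion channel matched by TC13760, a ligand-gated channel, was lower in spring than in both other libraries. It stood at 18.1 RPKM in winter, 7.36 in spring and 17.7 in retired bees, on 161, 56 and 130 reads. The winter and retired values lay close together and the spring value apart from both. It was 2.46-fold lower in spring than in winter (1.80 to 3.39) and 2.40-fold higher in retired than in spring bees (1.74 to 3.35), the only member past 10 RPKM called 2-fold in both. The spring over winter call was lost on rescaling, where its reads were 2.05-fold lower (1.51 to 2.83). Words for muscle proteins outside the set (myosin heavy chain, troponin, tropomyosin and titin) matched 41 sequences, of which 4 were non-muscle or 95F myosins. The other 37 summed to 771 RPKM in winter, 559.6 in spring and 814 in retired bees. They were 1.52-fold lower in spring than in winter (1.46 to 1.58) and 1.55-fold higher in retired than in spring bees (1.49 to 1.62). Without royal jelly reads they were 1.29-fold lower in spring than in winter (1.24 to 1.34). The 4 left out summed to 99.0, 115.4 and 103.4 RPKM, highest in spring. Their shares of reads gave ratios of 0.869 (0.800 to 0.945) in spring over winter and 0.959 (0.875 to 1.05) in retired over spring. All 41 gave 0.692 (0.668 to 0.716) and 1.44 (1.38 to 1.49). The part of the muscle sequences in the value of TC13760 was not tested. The other GABA-gated sequences had at most 15 reads in any library, and reads shared between near-identical sequences are not in these counts. Of them, NP9933075 was highest in spring, on 11, 15 and 1 reads, unlike TC13760. It was 14.5-fold lower in retired than in spring bees (2.23 to 610) and was picked out after its values were seen.

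Glutamate receptors counted 21 sequences, including kainate-like, delta-like and NMDA-type channels, metabotropic receptors coupled to G proteins, and a scaffold protein that binds glutamate receptors (TC22294), which stood at 8.74, 7.995 and 9.43 RPKM. The metabotropic receptor mGlutR1 (TC12291) stood at 17.1, 12.3 and 12.1 RPKM in winter, spring and retired bees and was 1.39-fold lower in spring than in winter (1.16 to 1.67). Glurb stood at 13.6, 10.96 and 11.5 RPKM. The NMDA-type subunit sequence NP1607965 was near its detection limit, with 11, 9 and 9 reads.

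Among the glutamate-gated channels a kainate 2-like sequence (NP9553731) had the highest level at 29.2, 21.0 and 25.2 RPKM. Another 3 sequences matched 1 glutamate receptor 1-like protein and together held 319, 227 and 175 reads. Summed, they were 1.20-fold lower in spring than in winter (1.01 to 1.43) and 1.25-fold lower in retired than in spring bees (1.02 to 1.54). TC21429 stood at 22.2, 12.6 and 15.8 RPKM, TC13735 at 21.1, 16.3 and 11.98 RPKM, and TC15827 at 15.6, 14.7 and 10.5 RPKM. TC21429 was 1.76-fold lower in spring than in winter (1.15 to 2.73), while the interval of TC15827 included 1 there and lay below 1 in retired over spring, 1.40-fold lower (1.09 to 1.79). The spring over winter intervals of the 3 sequences overlapped. Another kainate 2-like sequence (TC18710) was highest in retired bees at 13.3, 9.63 and 15.3 RPKM and was 1.59-fold higher in retired than in spring bees (1.15 to 2.22).

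A delta-2 subunit-like sequence (NP9546521) had the largest ratio of reads against winter among members with at least 50 reads in the 2 libraries. It held 53 reads in winter, 8 in spring and 5 in retired bees, or 8.66, 1.53 and 0.990 RPKM. It was 5.66-fold lower in spring than in winter (2.67 to 13.8) and 8.75-fold lower in retired than in winter bees (3.52 to 28.1). The spring and retired counts lay within each other's counting error. Its level never reached 10 RPKM, so it is not in the 2-fold counts above. With at least 50 reads in the 2 libraries in place of that minimum, it and TC13760 were the 2 of 79 members at least 2-fold lower in spring than in winter, beside 3.28% of all sequences. By that choice 1 of 72 members, TC13760, was at least 2-fold higher in retired than in spring bees, beside 1.13%, and 0 were lower, beside 0.778%. In retired over winter 3 of 78 were lower, beside 3.38%, namely NP9546521, NP9545413 and NP9548654, and 0 were higher, beside 0.977%. A relative (NP9552986) went the same way at 6.27, 3.67 and 2.23 RPKM, 2.81-fold lower in retired than in winter bees (1.36 to 6.37). Another 2 delta-2-like sequences (DB761592 and DB770934) together held 22, 10 and 15 reads. Their retired over winter ratio was 0.826, with an interval that included 1 (0.398 to 1.67).

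Neuropeptide genes were the least read group, with 11 sequences and 0.00650% of the winter, 0.00541% of the spring and 0.00541% of the retired reads. Among ligands, the allatostatin precursor (Apime-ASTA, TC14914), whose peptides act on gut and endocrine cells in insects, stood at 15.3, 11.6 and 11.2 RPKM in winter, spring and retired bees. The tachykinin precursor NP798982 stood at 4.69, 3.34 and 2.96 RPKM, and the neuropeptide precursor Pban at 3.91, 4.99 and 5.17 RPKM. Precursors together held 91, 66 and 66 reads, with intervals that included 1 in every comparison.

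Among receptors the allatostatin-A receptor-like sequence (NP9553880) stood at 16.6, 14.4 and 17.2 RPKM, a range within counting error. The neuropeptide Y receptor-like sequence TC24148, a receptor of the kind that in insects binds feeding-related peptides, stood at 6.96, 8.14 and 3.77 RPKM on 38, 38 and 17 reads, 2.16-fold lower in retired than in spring bees (1.19 to 4.08). Another neuropeptide Y receptor-like sequence (NP9546460) was highest in winter at 7.04, 1.80 and 3.20 RPKM on 32, 7 and 12 reads, 3.91-fold lower in spring than in winter (1.69 to 10.5). It was picked out after its values were seen.

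The voltage-gated sodium channel Para (TC13611), which carries the action potential in insect neurons and is the target of pyrethroids, stood at 58.4, 40.5 and 37.7 RPKM in winter, spring and retired bees on 1418, 841 and 756 reads. It was 1.44-fold lower in spring than in winter (1.32 to 1.57) and 1.55-fold lower in retired than in winter bees (1.42 to 1.69). It had the most reads of all 148 members and most of the reads of its group. The sodium channel 60E-like sequence NP9546566 stood at 16.1, 13.9 and 10.6 RPKM and was 1.31-fold lower in retired than in spring bees (1.11 to 1.55). A shorter 60E-like sequence (TC18199) was lowest in winter, at 10.3, 16.1 and 15.5 RPKM on 21, 28 and 26 reads, with intervals that included 1 per library total.

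Potassium channels bring the membrane back to rest. A slowpoke-like sequence (TC16611), for a large-conductance channel opened by calcium and voltage, had the highest level at 77.5, 55.8 and 56.9 RPKM in winter, spring and retired bees and was 1.39-fold lower in spring than in winter (1.23 to 1.57). Another slowpoke-like sequence (TC18979) gave the same ratio of 1.39-fold lower (1.09 to 1.77), at 43.2, 31.2 and 32.8 RPKM. The subfamily T channel TC23918, known in mammals as a channel opened by sodium, stood at 44.1, 39.4 and 34.4 RPKM, and the beta subunit TC22536 at 41.1, 30.8 and 31.9 RPKM. The small conductance calcium-activated channel (NP9548654, LOC410317) had the lowest retired over winter ratio among the group's members past the minimum, at 17.7, 10.04 and 7.88 RPKM on 128, 62 and 47 reads. It was 1.76-fold lower in spring than in winter (1.29 to 2.43) and 2.25-fold lower in retired than in winter bees (1.60 to 3.21). A TWiK 18-like sequence (NP9545633), at 12.9, 6.47 and 11.9 RPKM on 21, 9 and 16 reads, was 1.99-fold lower in spring than in winter, with an interval that included 1 (0.875 to 4.94).

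Calcium channels counted 27 sequences. Of these, 9 were pore-forming alpha-1 subunits, 7 were alpha-2/delta subunits, which carry channels to the membrane, and 4 were beta subunits. Cac (TC19629), the channel that triggers transmitter release in insects, stood at 43.5, 33.7 and 29.1 RPKM in winter, spring and retired bees. It was 1.29-fold lower in spring than in winter (1.17 to 1.43) and 1.16-fold lower in retired than in spring bees (1.03 to 1.30), so it was 1 of 5 members past the minimum whose retired over spring interval lay below 1. Its spring over winter interval included 1 without royal jelly reads, at a ratio of 0.914 (0.826 to 1.01), while the retired over spring interval stayed below 1. A short sequence resembling the same channel (BI505569) stood at 72.4, 46.8 and 60.2 RPKM, higher in retired than in spring bees but with an interval that included 1.

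The alpha-2/delta-3-like sequences stood at different levels. NP9548366 stood at 46.6, 35.3 and 32.0 RPKM and TC18671 at 67.5, 45.1 and 50.4 RPKM. TC19563, of the same gene symbol as TC18671 (LOC408841), stood at 14.2, 13.4 and 7.08 RPKM on 51, 41 and 21 reads and was 2.01-fold lower in retired than in winter bees (1.18 to 3.51). A sequence resembling the flower calcium channel (TC15346), known in flies for synaptic vesicle recycling and cell competition, was highest in spring at 35.7, 48.3 and 40.5 RPKM, with intervals that included 1 per library total. The channel Tpcn1 (TC20626), which releases calcium from endosomes and lysosomes, stood at 47.8, 33.6 and 27.7 RPKM and was 1.73-fold lower in retired than in winter bees (1.19 to 2.55).

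Release-activated calcium channels refill calcium stores in many cell types and are not particular to nerve cells. Sequence NP9545830 stood at 49.7, 43.7 and 35.6 RPKM in winter, spring and retired bees. NP9545413, which resembles the same family in a bumblebee, stood at 14.2, 1.48 and 2.30 RPKM on 45, 4 and 6 reads, with only the winter library above 3 RPKM. It was 9.61-fold lower in spring than in winter (3.50 to 36.8) and 6.19-fold lower in retired than in winter bees (2.63 to 17.8). The intervals are wide because the spring and retired counts are small. A T-type alpha subunit sequence of 242 bases (NP9545873) stood at 24.7, 16.3 and 9.10 RPKM on 23, 13 and 7 reads. NP9545413, NP9545873 and NP9548654 are the 3 members at least 2-fold lower in retired than in winter bees, and NP9545873 was picked out after its values were seen.

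**Figure D4:**
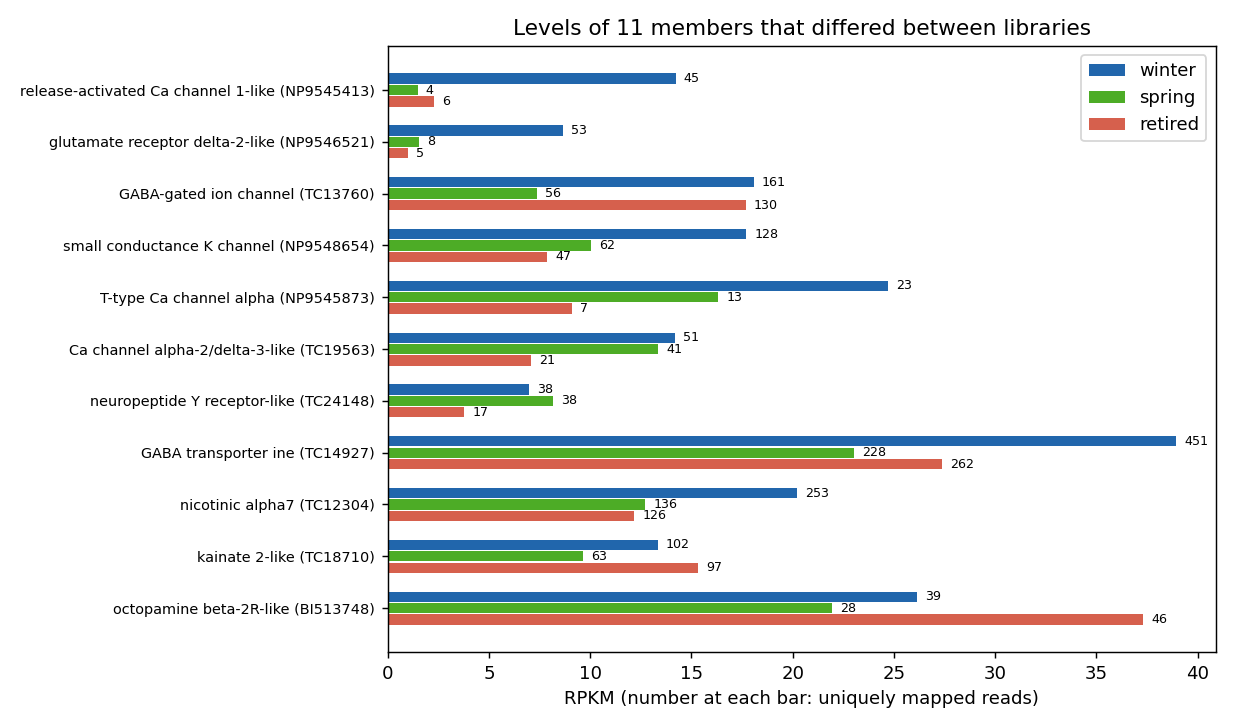
RPKM of 11 members, picked after their values were seen, in the winter, spring and retired libraries (bars from 0), with the number of uniquely mapped reads at each bar and 1 library per bar. NP9545413 and NP9546521 are high in winter alone, TC13760 is low in spring alone, and BI513748 is highest in retired bees on 46 reads.

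Genes that make, pack and answer these signals were listed by words of the protein and orthology descriptions. In spring over winter, 34% of all sequences past the minimum had intervals below 1 and 7.4% above, and their median was -0.26. Of 25 sequences for transmitter synthesis and release with at least 10 RPKM, 1 was 2-fold or more above winter in spring and 0 were 2-fold or more below. Intervals lay below 1 for 14 and above 1 for 3, and the median log2 ratio was -0.44, while the ratio of their summed share was 0.854 (0.828 to 0.881) per library total and 1.01 (0.977 to 1.04) without royal jelly reads. The orthology text brought 14-3-3 proteins and other sequences outside the name into this list. By the protein description alone, 16 passed the minimum, with 10 intervals below 1, 1 above and a median of -0.58. In that form their summed share was 1.39-fold lower in spring than in winter (1.33 to 1.45) and 1.12-fold higher in retired than in spring bees (1.07 to 1.17). Without royal jelly reads these ratios were 0.851 (0.814 to 0.888) and 1.08 (1.03 to 1.13). The synaptic vesicular amine transporter (TC12594), which loads amines into vesicles, stood at 74.7, 41.7 and 54.4 RPKM in winter, spring and retired bees, lowest in spring.

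Downstream signalling genes (G protein subunits, adenylate cyclases, phospholipase C, protein kinase A and arrestin) had 18 of 38 intervals below 1 and 2 above in spring over winter, with a median of -0.23, close to the -0.26 of all sequences. Their summed share was 1.21-fold lower in spring than in winter (1.18 to 1.23) and 1.27-fold lower in retired than in winter bees (1.24 to 1.30). The same ratios without royal jelly reads were 0.976 (0.956 to 0.997) and 0.896 (0.876 to 0.916). Genes that cut and amidate neuropeptides had 2 of 6 intervals below 1 and 1 above in spring over winter. Their median, 0.02, and their summed share, 1.13-fold lower (1.06 to 1.20), differed in sign, and with royal jelly reads left out the ratio was 1.04 (0.980 to 1.11), which turns its direction. By the protein description alone, 4 passed the minimum, and the median of -0.22 and the ratio of 0.845 (0.790 to 0.905) had the same sign. Without royal jelly reads that ratio was 0.997 (0.931 to 1.07).

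The summed share of the neuron markers was 1.25-fold lower in spring than in winter (1.22 to 1.29) and 1.26-fold lower in retired than in winter bees (1.22 to 1.29), beside 1.30-fold and 1.33-fold for the transmitter genes. In retired over spring bees the neuron markers gave a ratio of 0.996 (0.966 to 1.03). On totals without royal jelly reads, the neuron markers gave 0.942 (0.916 to 0.968) in spring over winter and 0.904 (0.879 to 0.929) in retired over winter, beside 0.910 and 0.856 for the transmitter genes. Glia markers (glutamine synthetase and excitatory amino acid transporters) were 1.20-fold lower in spring than in winter (1.15 to 1.25) and 1.14-fold higher in retired than in spring bees (1.09 to 1.19). The spring over winter ratio of the glia markers was 0.985 (0.943 to 1.03) without royal jelly reads, an interval that included 1. Fat body markers (vitellogenin and hexamerins) summed to 87.4, 34.4 and 20.9 RPKM. Of the marker words searched, syntaxin-1, repo and projectin matched no listed sequence. The part of nerve tissue or of other cell types in the differences of single members was not tested.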

How the data were processed

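Poly(A) RNA of 3 pools, 1 library each, was sequenced on an Illumina instrument, per the labels' protocols. Per the file headers, each deposited table lists a read count (uniquely mapped reads), a length, a covered fraction (coverage) and an RPKM value per transcript sequence. RPKM as deposited equal reads over length and library total, and read counts sum to the header total, which was checked for every sequence. The aligner and the sequence set used: not given in the sources used here. A sequence absent from a table was taken as 0 reads.

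Tables were joined on the sequence identifier. Members and lists were chosen with earlier results of these data known. Symbols came from a gene table of assembly Amel_HAv3.1 by protein accession, for 64 of 148 members, for names only. Coordinates and base sequences are not used here. Named were the 4 highest members of each group and the 10 largest log2 ratios per comparison among members with at least 50 reads; whole families were described beside them, grouped by description after the values were seen. The pseudocount was 1 RPKM. Library totals without royal jelly reads, lists by protein description alone, muscle markers without non-muscle myosins and counts without a minimum were added after seeing the data. Without replicates no p-values were computed. PCR copies are not independent, so intervals can be too narrow. Reads matching several near-identical sequences are not counted. Scripts were tested on simulated data. Calculations ran in Python 3.11.15 with scipy 1.17.1, numpy 2.4.6 and pandas 2.3.3, and plots in matplotlib 3.10.9.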

Additional observations from a re-analysis of the deposited data

How the results depend on the processing

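No paired analysis was possible because each group has 1 library, so no replicate could be left out either. Counts of 2-fold differences rest on few members and moved with the minimum. With a minimum of 1 RPKM, spring over winter had 2 members 2-fold or more above and 13 below, retired over spring 4 above and 6 below, and retired over winter 12 below. The shares of all sequences at that minimum are not given here. These counts therefore show only that the numbers move with the minimum, not that members differ from other sequences. Under a pseudocount of 5, under rescaling to a median ratio of 1 and with royal jelly reads left out of the totals (added after seeing the data), spring over winter had 1 member lower. The call lost was that of the GABA-gated channel TC13760, and NP9545413 kept its call. For retired over spring, a pseudocount of 0.1 gave 2 higher and one of 5 gave 0, so the call of TC13760 was lost there too. The ratio of shares of reads was 0.924 in spring over winter and 0.924 in retired over winter after rescaling, and 0.910, 0.941 (retired over spring) and 0.856 without royal jelly reads. The medians kept their sign in spring over winter and retired over winter under each alternative, between -0.42 and -0.15 and between -0.40 and -0.10. Between retired and spring bees the median lay between -0.07 and 0.01. Of the ratios of single named members, 28 left their interval and 119 stayed within it on rescaling, and 18 left and 129 stayed without royal jelly reads. Depth limits single members: 62 had under 50 reads over the 3 libraries.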
